A study of Mus musculus with 6 samples.

Results

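The TNF and TNF receptor superfamilies are 2 families of partner proteins through which blood cells instruct each other to live, die, divide or inflame. Genes were taken by the array annotation's symbol: those starting with Tnfsf (ligands) or Tnfrsf (receptors), and Tnf, Lta, Ltb, Ltbr, Fas, Fasl, Cd27, Cd70, Eda2r, Relt and Ngfr. Of 18193 genes measured, 38 met this description, 12 of them ligand genes, 25 receptor genes and 1 a non-coding antisense gene, Tnfsf13os, which met it by name alone. They were read from bone marrow cells of healthy C57BL/6 mice cultured toward myeloid-derived suppressor cells (MDSCs), a mixed population of immature granulocytic and monocytic cells known for holding back T cells. Before the culture, 3 samples received an oligonucleotide mimicking the microRNA miR-142-3p, which blood cells express strongly, and 3 received a control oligonucleotide (CTRL). The oligonucleotides were given at 100 nM with the reagent GeneSilencer, and GM-CSF and IL-6 followed after 5 h for 4 days in both groups. Each sample was hybridised to 1 Affymetrix MOE430 2.0 array. The labels name no sorting step, and nothing in them states whether a group's arrays came from separate cultures or mice, so p-values reflect the spread among these arrays alone, and that spread may be technical.

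The ligands are trimeric membrane proteins, many of which are also shed, and the receptors gather adaptor proteins under the membrane when a ligand draws them together. A subset of receptors, Fas and the main TNF receptor among them, carry a death domain and can start apoptosis or necroptosis. The others recruit TRAF adaptors and act mainly through NF-kB and MAP kinases. Decoy receptors bind a ligand without passing on a signal. In myeloid cultures TNF is known as a product of activated monocytes, macrophages and dendritic cells, and several family members, 4-1BB and lymphotoxin among them, are better known from lymphocytes and dendritic cells.

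The sequences below are the microRNA that the oligonucleotide mimics and the promoters of the genes on which the results turn. The mature microRNA is given 5′ to 3′ as RefSeq lists it for mmu-miR-142a-3p (GRCm38.p6, chr11:87756903-87756925, plus strand), with the seed, bases 2 to 8, in capitals. The sequence of the oligonucleotide itself is not given in the sources used here.
mmu-miR-142a-3p: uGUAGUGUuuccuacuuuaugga
The promoters are the 250 bases before the RefSeq start site of Fas and Tnfsf10, the only 2 genes of the families that passed the test across all genes, and of Ltb, which had the next smallest p. They lie on the plus strand of GRCm38.p6 at chr19:34290409-34290658 (Fas), chr3:27316827-27317076 (Tnfsf10) and chr17:35194257-35194506 (Ltb).
Fas: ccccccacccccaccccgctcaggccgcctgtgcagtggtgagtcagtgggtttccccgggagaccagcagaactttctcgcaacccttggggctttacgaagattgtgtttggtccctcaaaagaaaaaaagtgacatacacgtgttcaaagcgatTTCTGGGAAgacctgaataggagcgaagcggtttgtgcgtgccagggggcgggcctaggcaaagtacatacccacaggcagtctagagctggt
Tnfsf10: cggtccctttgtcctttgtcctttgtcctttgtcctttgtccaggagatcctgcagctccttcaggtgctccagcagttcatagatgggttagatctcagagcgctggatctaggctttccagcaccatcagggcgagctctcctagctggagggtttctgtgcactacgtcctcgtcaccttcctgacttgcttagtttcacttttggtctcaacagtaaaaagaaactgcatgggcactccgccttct
Ltb: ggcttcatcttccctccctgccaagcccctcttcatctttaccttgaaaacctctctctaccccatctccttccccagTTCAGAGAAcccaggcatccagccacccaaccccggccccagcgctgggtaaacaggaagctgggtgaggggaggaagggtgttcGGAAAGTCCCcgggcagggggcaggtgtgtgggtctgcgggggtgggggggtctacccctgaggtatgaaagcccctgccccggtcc
Capitals mark matches to 3 motifs searched on both strands. These were a kappaB motif bound by NF-kB (GGGA and TTCC with any 2 bases between), an interferon response motif, ISRE (GAAA and GAAA with any 2 bases between), and a STAT motif, GAS (TTCNNNGAA, which reads the same on both strands). The Fas window held 1 GAS match, the Ltb window 1 GAS match and 1 kappaB match (on the opposite strand), and the Tnfsf10 window held none of the 3. RefSeq promoters were found for 31 of the 38 genes, 35 promoters in all, of which 2.86% held the kappaB motif, 11.4% the ISRE and 22.9% the GAS motif. Over all 32851 promoters of the same length the shares were 1.21%, 2.98% and 7.02%. A match is a description of the letters and not of binding.

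The cultures were myeloid by their markers. All 12 listed myeloid genes, among them S100a8, S100a9, Itgam and Csf3r, had a mean log2 of at least 5, a level that 22.5% of all genes reached. Values are the deposited log2 values, which start just below 0. Of all genes 37.2% had a mean under 1, so values near or below 1 are treated here as dim. Lymphoid markers were mixed, with Cd3d, Cd3g, Cd8a and Ncr1 dim in both groups. Cd3e was at 2.28, Cd4 at 1.75 and Gzmb at 1.72 in the controls. In the controls the mean log2 was 6.79 for Thy1 and 6.22 for Il7r. The B cell genes Cd79b (5.75), Cd79a (4.40), Cd22 (4.28), Ms4a1 (3.93) and Blk (2.91) were also above the dim range in the controls. Other B cell genes were dim there, Pax5 at 1.09, Ebf1 at 1.09 and Vpreb1 at 0.56. No 2 arrays were the same, and correlations between arrays ran from 0.982 to 0.996. Control array 1 lay apart from the other controls in several members, Tnfrsf9 and Tnf among them, and values without it are given beside those results.

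The comparison asked how the genes of these families respond to added miR-142-3p during MDSC formation. With the mimic the death receptor gene Fas fell and the ligand gene Tnfsf10, which encodes TRAIL, rose. No other member passed limma's test at an adjusted p of 0.05 over all 18193 genes, so 2 of 38 were called (5.26%), against 2.76% of all genes (1.59% lower and 1.17% higher). The mean was lower with the mimic in 24 members (63.2%, against 48.1% of all genes) and higher in 14. The median log2 fold change of the 38 was -0.11, against 0.01 over all genes. In 7 members, or 18.4%, every mimic array lay below every control array, while 11.1% of all genes showed this, and in 2 members every mimic array lay above, against 11% of all genes (9 in either direction, against 22.2% of all genes). An unadjusted limma p under 0.05 was found for 7 members with lower and 2 with higher means, against 9.06% and 7.99% of all genes.

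**Figure D1:**
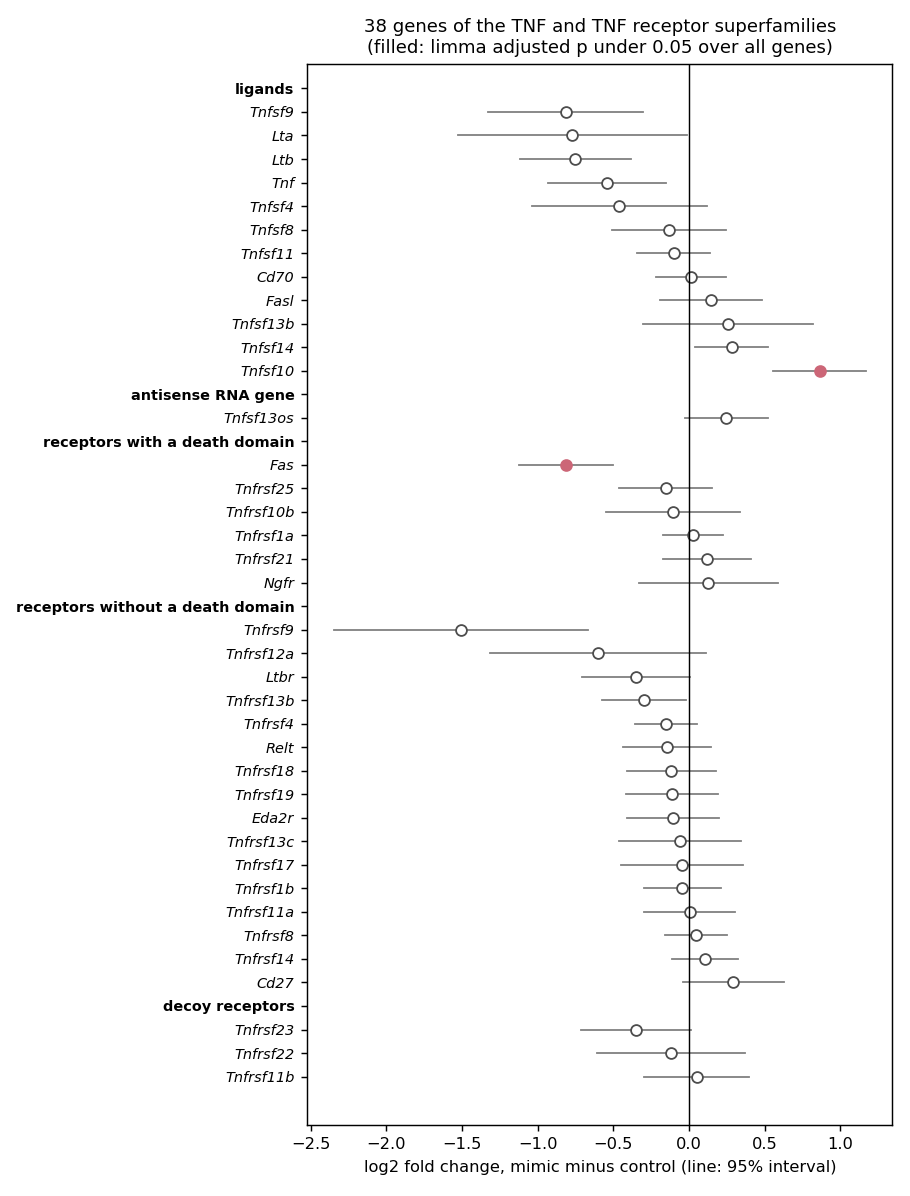
Log2 fold change of each of the 38 genes, mimic minus control, by role, with lines for the 95% interval from limma and filled points for an adjusted p under 0.05 over all genes. The filled points are Tnfsf10 at 0.86 and Fas at -0.81, and Tnfrsf9 at -1.51 has the widest interval.

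Fas encodes the receptor through which Fas ligand triggers apoptosis. Its log2 values were 5.84, 5.74 and 5.72 on control arrays 1, 2 and 3, and on mimic arrays 1, 2 and 3 they were 4.97, 4.70 and 5.19. The controls lay close together, and every mimic array was below all of them. The level fell 1.75-fold, from 5.76 ± 0.06 to 4.95 ± 0.25 (SD, n = 3), with a difference of -0.81 ± 0.13 in log2 (SE, limma's adjusted p = 0.0246). The gene is read by 1 probe set. Leaving out any single array, the log2 fold change was between -0.93 and -0.68 and the adjusted p between 0.0576 and 0.134, so the call was lost in every such fit. Its ligand gene Fasl was dim, at 0.47, -0.04 and 0.12 on the control arrays and 0.27, 0.25 and 0.47 on the mimic arrays. These ranges overlap (log2 fold change 0.15 ± 0.14, limma's adjusted p = 0.682).

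Tnfsf10 encodes TRAIL, a death ligand known to be induced by interferon. Its values were 0.78, 0.78 and 0.74 on the control arrays and 1.63, 1.88 and 1.38 on the mimic arrays. Control arrays 1 and 2 held the same value, the mimic arrays all lay above, and the gene was dim in both groups, at the 41.1st percentile of gene means. It rose 1.82-fold on this scale, from 0.77 ± 0.02 to 1.63 ± 0.25 (SD, n = 3), with a difference of 0.86 ± 0.13 in log2 (SE, limma's adjusted p = 0.0201). A second probe set read 0.46, 0.47 and 0.84 on the control arrays and 1.02, 1.40 and 1.58 on the mimic arrays. The remaining probe set read 0.60, 0.56 and 0.47 on the control arrays and 1.02, 1.09 and 1.48 on the mimic arrays. All 3 probe sets were thus higher on every mimic array than on any control array, and when every probe set was tested on its own they had adjusted p-values of 0.0404, 0.119 and 0.0879 by limma. Leaving out any single array, the representative probe set gave a log2 fold change between 0.74 and 0.99 and did not pass (adjusted p between 0.0554 and 0.124).

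Among the receptor genes of TRAIL no difference passed. Tnfrsf10b, the mouse death receptor for TRAIL, was dim, at 0.56 ± 0.42 in the controls against 0.46 ± 0.01 (SD, n = 3). The decoy receptor genes Tnfrsf22 and Tnfrsf23 had log2 fold changes of -0.12 ± 0.21 and -0.35 ± 0.16 (limma's adjusted p = 0.837 and 0.318). A probe set that the annotation gives to both decoys together, which was kept out of the gene test, read 4.51, 4.95 and 4.72 on the control arrays and 4.27, 4.61 and 4.35 on the mimic arrays. Tnfrsf11b, the soluble decoy osteoprotegerin, was at 0.64 ± 0.23 and 0.69 ± 0.19. In each of the 3 decoy receptor genes the groups overlapped.

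Among the ligands, the neighbouring genes Tnf, Lta and Ltb had lower means with the mimic, and none of the 3 passed. They lie side by side on chromosome 17 in RefSeq. Tnf, the founding cytokine of the family, read 6.27, 5.80 and 5.68 on the control arrays and 5.22, 5.34 and 5.56 on the mimic arrays. The groups did not overlap, but control array 3 and mimic array 3 lay close together. Its mean was 5.91 ± 0.31 against 5.37 ± 0.17 in the mimic arrays (SD, n = 3), a difference of -0.54 ± 0.17 (limma's adjusted p = 0.148) that was -0.37 without control array 1. Ltb, whose product anchors lymphotoxin to the membrane, read 4.87, 4.50 and 4.62 on the control arrays and 3.67, 3.87 and 4.20 on the mimic arrays. Every mimic array was lower, with 4.66 ± 0.19 against 3.91 ± 0.27 (log2 fold change -0.75 ± 0.16, limma's adjusted p = 0.0533). Ltb is read by 1 probe set and passed in 5 of 15 other settings. These included centring the arrays on their medians (limma's adjusted p = 0.0325), array weights (0.0173) and a trended robust variance (0.0311). The others were leaving out genes under a mean log2 of 3 (limma's adjusted p = 0.029) and averaging all probe sets of a gene (0.0459). Averaging left the values of Ltb itself unchanged.

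Lta, which encodes the soluble lymphotoxin, was dim and overlapped between groups, with 2.33, 1.64 and 0.95 on the control arrays and 0.81, 0.57 and 1.23 on the mimic arrays. Its log2 fold change was -0.77 ± 0.33 (limma's adjusted p = 0.286), and it was -0.43 without control array 1. Ltbr, the receptor of membrane lymphotoxin, read 5.97, 5.54 and 5.41 on the control arrays and 5.17, 5.31 and 5.39 on the mimic arrays. The groups touched without overlapping, with no pass in the test (difference -0.35 ± 0.15, limma's adjusted p = 0.3). Control array 1 was the highest, and without it the difference was -0.19. The other ligand of this receptor, LIGHT, is encoded by Tnfsf14, which read 3.07, 3.36 and 3.16 on the control arrays and 3.44, 3.53 and 3.47 on the mimic arrays. Every mimic array was higher, and the log2 fold change of 0.28 ± 0.10 did not pass (limma's adjusted p = 0.22). A second, dimmer probe set of Tnfsf14 was lower in its mean with the mimic, by a log2 fold change of -0.24. Tnfsf9 and Cd70, which neighbour Tnfsf14 on the same chromosome, had log2 fold changes of -0.81 and 0.01.

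**Figure D2:**
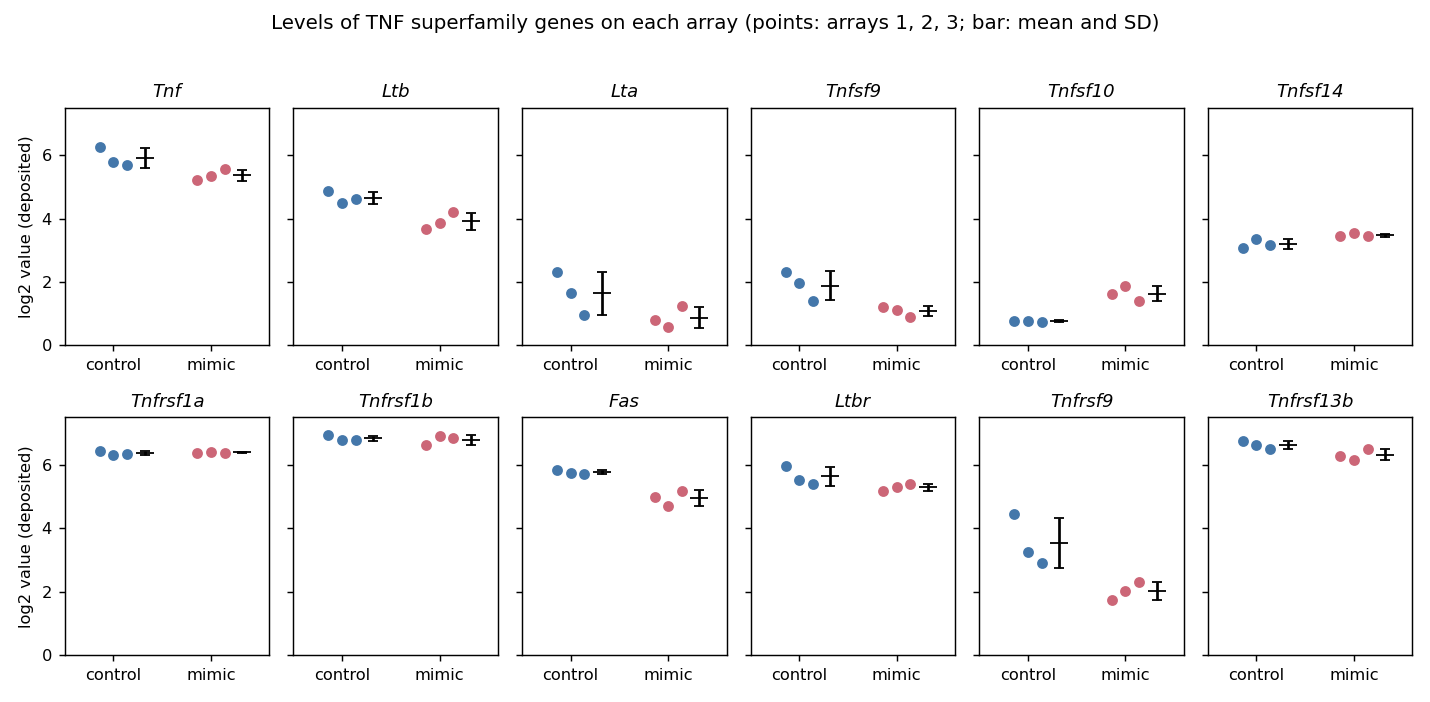
Deposited log2 values of 12 members on each of the 6 arrays, with points for arrays 1, 2 and 3 of a group from left to right and a bar for the mean and SD. Fas and Tnfsf10 separate the groups clearly, control array 1 is the highest control in Tnf and Tnfrsf9, and Tnfrsf1a lies between 6.32 and 6.44 on every array.

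Both receptors of TNF were bright and differed little. Tnfrsf1a, the death domain receptor that most cells carry, read 6.44, 6.32 and 6.35 on the control arrays and 6.38, 6.42 and 6.39 on the mimic arrays. The groups overlapped, and the log2 fold change was 0.03 with a 95% interval from -0.17 to 0.23 (limma's adjusted p = 0.916). Tnfrsf1b, the receptor prominent on leukocytes, read 6.94, 6.79 and 6.78 on the control arrays and 6.62, 6.91 and 6.85 on the mimic arrays. These also overlapped, with a log2 fold change of -0.04 and an interval from -0.30 to 0.21 (limma's adjusted p = 0.895). Both of these intervals lie nearer to 0 than the difference seen in Fas. A second, dimmer probe set of Tnfrsf1b had a log2 fold change of -0.15. Its interval, from -0.91 to 0.62, was wider and took in the Fas difference.

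The largest difference among the 38 was that of Tnfrsf9, which encodes 4-1BB, a costimulatory receptor of T cells that activated myeloid cells also carry. It read 4.44, 3.24 and 2.92 on the control arrays and 1.74, 2.03 and 2.31 on the mimic arrays. All controls were higher, and control array 1 stood more than a log2 unit above the next control. The log2 fold change was -1.51 ± 0.36, which did not pass (limma's adjusted p = 0.0785), and it was -1.05 without control array 1 (adjusted p = 0.0631). It passed with a trended robust variance (limma's adjusted p = 0.037) and with array weights (0.0223). A second probe set of the gene read 2.59, 1.12 and 0.92 on the control arrays and 0.90, 0.36 and 0.36 on the mimic arrays, again with control array 1 the highest. The remaining probe set lay between 0.13 and 0.35 on all arrays. With all 3 probe sets averaged the log2 fold change of Tnfrsf9 was -0.82 (limma's adjusted p = 0.137), about that of Fas and Tnfsf9.

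The ligand of 4-1BB, encoded by Tnfsf9, read 2.32, 1.96 and 1.39 on the control arrays and 1.22, 1.10 and 0.90 on the mimic arrays. Every mimic array was lower, at a dim level. The log2 fold change was -0.81 ± 0.22 (limma's adjusted p = 0.11). Without control array 3 it was -1.07 and passed (limma's adjusted p = 0.031), and without control array 1 it was -0.60. Of the other costimulatory pairs, Tnfsf4 (OX40 ligand) and its receptor gene Tnfrsf4 had log2 fold changes of -0.46 ± 0.25 and -0.15 ± 0.09 (limma's adjusted p = 0.415 and 0.445). Every mimic array of Tnfrsf4 was below the controls, by a small margin. Tnfrsf18, which encodes GITR, was at 4.28 ± 0.22 and 4.16 ± 0.07 (SD, n = 3). The CD27 and CD30 pairs (Cd70 with Cd27, Tnfsf8 with Tnfrsf8) were dim, with means under 1 in both groups.

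The receptor TACI, a receptor of the B cell survival factors, is encoded by Tnfrsf13b and was among the brighter members. It read 6.74, 6.64 and 6.49 on the control arrays and 6.29, 6.17 and 6.51 on the mimic arrays. Mimic array 3 lay above control array 3, so the groups overlapped, and the log2 fold change of -0.30 ± 0.12 did not pass (limma's adjusted p = 0.257). Its relatives Tnfrsf13c (BAFF receptor) and Tnfrsf17 (BCMA) had log2 fold changes of -0.06 and -0.05, and their ligand gene Tnfsf13b (BAFF) had one of 0.26 ± 0.24. Tnfsf12 and Tnfsf13 were read only by probe sets shared between several genes and were not tested as genes. The probe set given to Tnfsf12 and Tnfsfm13 had a log2 fold change of -0.12. That given to Tnfsf12, Tnfsf13 and Tnfsfm13 together had one of -0.09. Tnfrsf12a, the receptor of the Tnfsf12 product TWEAK, had a log2 fold change of -0.60 ± 0.31 (limma's adjusted p = 0.385) and overlapping groups, with -0.29 without control array 1. Its second probe set was lower on every mimic array than on any control array, by a log2 fold change of -0.74. That probe set did not pass when every probe set was tested on its own (limma's adjusted p = 0.171).

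The remaining bright receptors showed overlapping groups. Tnfrsf21, the death domain receptor DR6, read 5.45, 5.69 and 5.52 on the control arrays and 5.45, 5.77 and 5.80 on the mimic arrays (log2 fold change 0.12 ± 0.13, limma's adjusted p = 0.7). Its second probe set was lower in its mean with the mimic, by -0.22. Relt, a receptor found mainly in blood cells, read 5.30, 5.02 and 5.08 on the control arrays and 4.83, 5.18 and 4.96 on the mimic arrays (log2 fold change -0.14 ± 0.13, limma's adjusted p = 0.635). The value for Relt was -0.059 without control array 1 and -0.064 without mimic array 1. The RANK receptor gene Tnfrsf11a had a log2 fold change of 0.0045 and its ligand gene Tnfsf11 one of -0.10. Their second probe sets gave 0.36 and -0.29, and neither passed when tested on its own (limma's adjusted p = 0.593 and 0.32). In all, 13 of the 38 had a mean log2 under 1, with log2 fold changes from -0.15 to 0.29 and no separation between the groups in any of them. Of the 16 members read by several probe sets, 9 had the same sign in all and 7 had both signs.

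**Figure D3:**
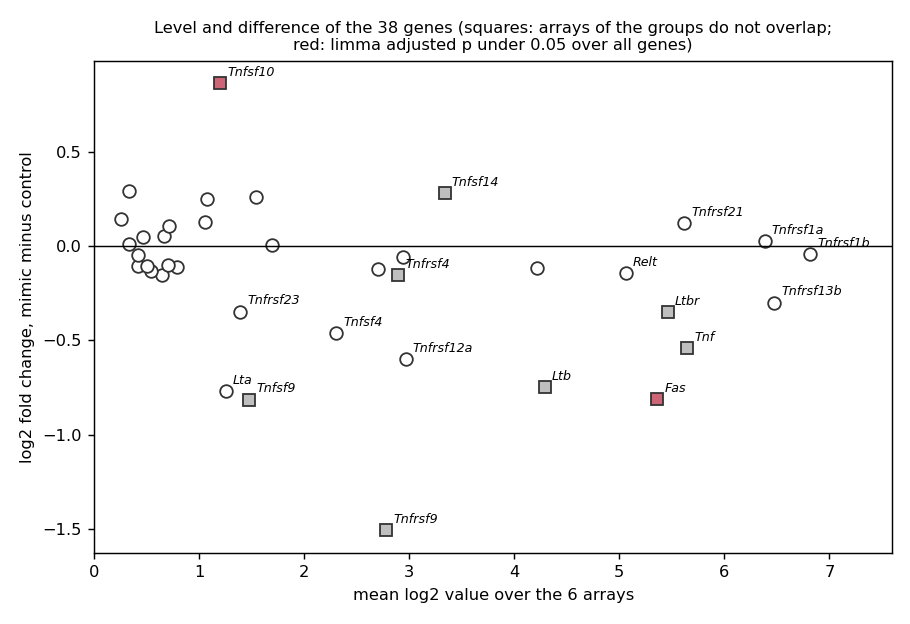
Log2 fold change, mimic minus control, of the 38 genes against their mean log2 value over the 6 arrays, with squares where the arrays of the groups do not overlap and red for an adjusted p under 0.05 over all genes. Fas passed at a mean of 5.36 and Tnfsf10 at 1.20, and the 9 squares are 7 genes below 0 and 2 above.

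Marker genes of other cells moved in the same libraries. Of 13 measured dendritic cell genes 7 fell and 0 rose, with a mean log2 over the list of 4.25 to 5.17 in the controls, highest in control array 1, and of 3.13 to 3.22 under the mimic. Itgax, which encodes CD11c, had a log2 fold change of -2.80 ± 0.27 (limma's adjusted p = 0.00673). Xcr1 and Cd209a had means under 1. Of 8 B cell genes 1 fell, Ms4a1, with a list mean of 2.94 to 3.05 in the controls and of 2.49 to 2.67 under the mimic, and Vpreb1 and Ebf1 had means under 1. Of 9 T and NK cell genes Thy1 fell and Gzmb rose, with a list mean of 2.41 to 2.53 in the controls and of 2.50 in each mimic array. Of 7 mast cell and basophil genes 2 rose, with a list mean of 3.95 to 4.70 in the controls, lowest in control array 1, and of 5.17 to 5.25 under the mimic. Of 4 eosinophil genes 1 rose, with a list mean of 3.64 to 4.52 in the controls, again lowest in control array 1, and of 4.90 to 4.97 under the mimic. Of 6 stromal and endothelial genes 1 fell, and of 5 megakaryocyte and 3 erythroid genes 0 passed. All 5 megakaryocyte genes had higher means with the mimic, with a list mean of 5.78 to 6.18 in the controls and of 6.26 to 6.58 under the mimic. Of 12 myeloid genes 5 fell and 0 rose. In such bulk samples fewer cells of a type and less RNA per cell cannot be told apart, and the part of these cells in the differences of Fas, Tnfsf10, Ltb, Tnf, Tnfsf9 and Tnfrsf9 was not tested.

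The machinery that the receptors use was read from 48 measured genes of a list of 53. Of these 3 fell and 2 rose, and 43 did not pass, so 10.4% were called, against 2.76% of all genes. The list was chosen with earlier results of these data known, so this share is no test of the pathway. The mean was lower with the mimic in 24 of the 48 and higher in 24, with a median log2 fold change of 0.01. Every mimic array lay below the controls in 13 of them (27.1%, against 11.1% of all genes) and above in 11 (22.9%, against 11%). The list also held more genes of high level, 41.7% with a mean log2 of at least 5 against 22.5% of all genes. Among 12 adaptor and ubiquitin ligase genes Traf1 and Traf5 fell. Traf1, an adaptor of the receptors encoded by Tnfrsf1b and Tnfrsf9, read 3.38, 3.29 and 3.17 on the control arrays and 2.27, 2.21 and 2.32 on the mimic arrays. The groups stood far apart, and the level fell 2.02-fold (log2 fold change -1.02 ± 0.10, limma's adjusted p = 0.00673). Traf1 has 2 probe sets, and with both averaged the log2 fold change was only -0.53. The 2 thus differed in the size of the change, although the average passed (limma's adjusted p = 0.0161). Traf5, an adaptor of several costimulatory receptors, read 3.74, 3.25 and 3.19 on the control arrays and 2.62, 2.73 and 2.40 on the mimic arrays. It fell by 0.81 ± 0.16 on the log2 scale with an adjusted p close to the threshold (0.048 by limma), and lost its call in each fit without 1 array. With its 2 probe sets averaged it was at -0.42 and did not pass, so these too differed in size. Birc3, a ubiquitin ligase of the TNF receptor complex, had a log2 fold change of -0.43 ± 0.09, short of the threshold (limma's adjusted p = 0.0636), and passed in 4 other settings (both filters on dim genes, the trended robust variance and array weights).

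In the death branch, Mlkl and Daxx rose among 7 measured genes. Mlkl, the pore-forming executioner of necroptosis, read 4.71, 5.18 and 5.43 on the control arrays and 6.31, 6.23 and 6.49 on the mimic arrays. All mimic arrays were higher, a 2.35-fold rise (log2 fold change 1.24 ± 0.18, limma's adjusted p = 0.0174). Daxx, first described as a partner of the Fas death domain and mainly a nuclear chaperone, rose from 6.38 ± 0.19 to 7.001 ± 0.05 (SD, n = 3, log2 fold change 0.62 ± 0.12, limma's adjusted p = 0.0362). With the replicate number as a block Daxx no longer passed (limma's adjusted p = 0.0621), and neither did Traf5 (0.0559). The apoptosis genes Fadd and Casp8 and the necroptosis kinase gene Ripk3 had log2 fold changes of -0.12, 0.05 and 0.08. No gene of the list, and no gene on the arrays, passed in the fits lacking control array 2, or mimic array 1, or mimic array 3, and without mimic array 2 Traf1 was the only gene of the list to pass. Without control array 1 Traf1, Tnip1 and Mlkl passed, and without control array 3 Daxx and Adam17 passed as well.

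Of 9 genes that restrain TNF signalling Tnip1 fell. It encodes a partner of A20, and it read 7.12, 7.004 and 7.02 on the control arrays and 6.51, 6.33 and 6.45 on the mimic arrays (log2 fold change -0.62 ± 0.09, limma's adjusted p = 0.0195). The gene of A20 itself, Tnfaip3, was at 6.18 ± 0.05 in the controls against 5.78 ± 0.10, short of the threshold (difference -0.39 ± 0.09, limma's adjusted p = 0.0775), and it passed in those 4 settings and with probe sets averaged. Of 8 kinase genes 0 passed, Map3k14 (NIK) having the largest difference at -0.74 ± 0.21 (limma's adjusted p = 0.124). Of 5 shedding genes 0 passed. Adam17, the protease that frees TNF from the membrane, was at 6.87 ± 0.41 in the controls against 6.12 ± 0.08 (log2 fold change -0.75 ± 0.19, limma's adjusted p = 0.0954), and it passed in 4 of the other settings, leaving out control array 3 or genes under a mean log2 of 5, averaging probe sets, or using a trended robust variance. Of 7 superfamily genes under other symbols 0 passed, 2 had lower and 5 had higher means. Cd40, a receptor of antigen-presenting cells, had a log2 fold change of 0.15 ± 0.20 (limma's adjusted p = 0.777). Every mimic array was above the controls in Edaradd (0.40 ± 0.11, limma's adjusted p = 0.117) and Rell1 (0.32 ± 0.09, limma's adjusted p = 0.125). With array weights Rell1 passed.

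**Figure D4:**
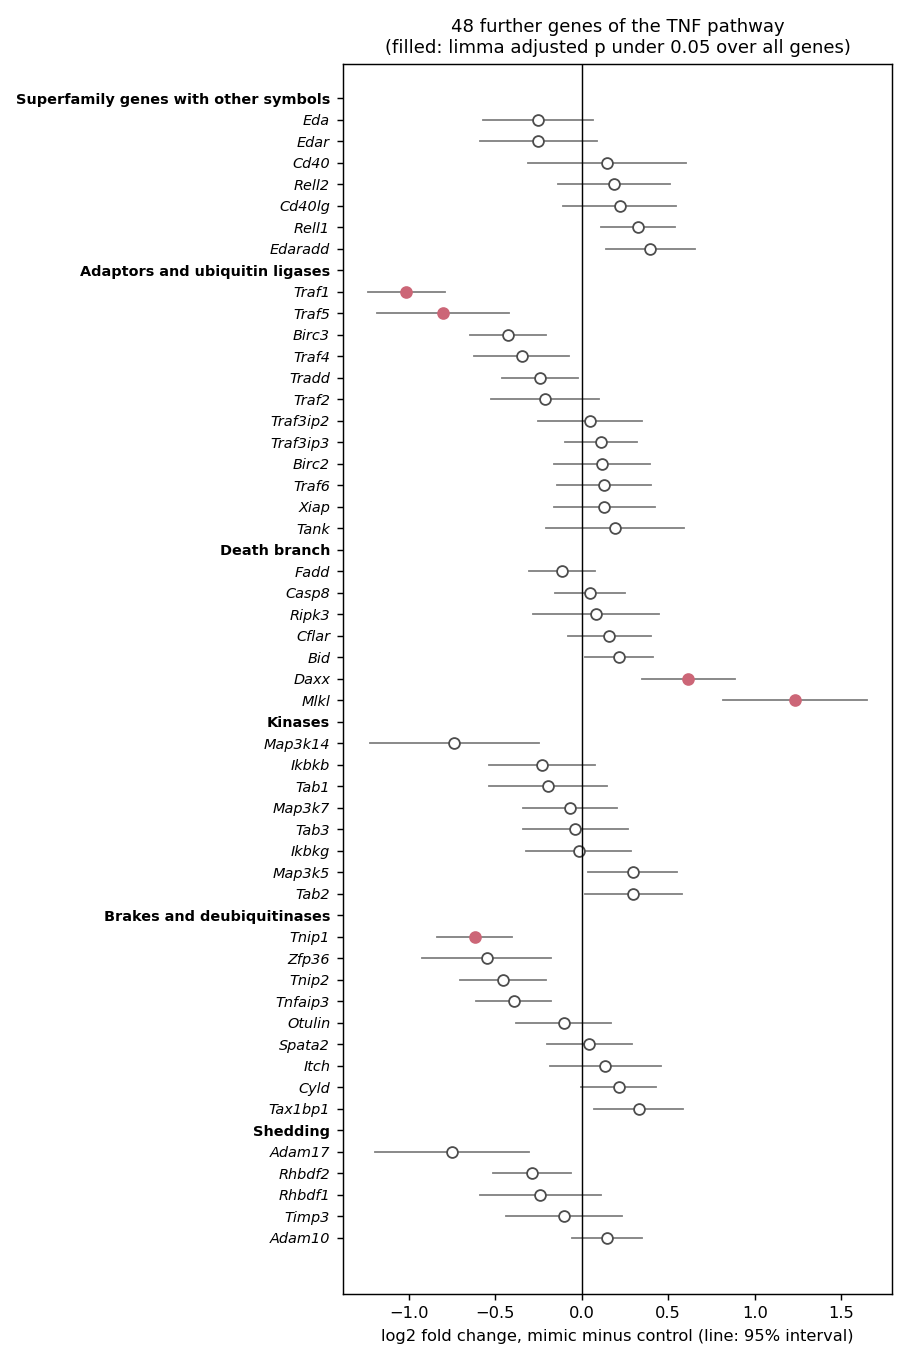
Log2 fold change, mimic minus control, of 48 further genes of the TNF pathway by function, with lines for the 95% interval from limma and filled points for an adjusted p under 0.05 over all genes. The filled points are Traf1, Traf5 and Tnip1 below 0 and Daxx and Mlkl above.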

How the data were processed

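RNA of 3 mimic and 3 control samples was measured on 6 arrays. The deposited table holds log2 values per probe set; the authors' processing named RMA and affy, per the submitters' processing notes, with no version. The log base was read from the values, since the highest value (12.3) is above what a natural log of a 16-bit scanner reading can reach (11.1). Centring and floor are not stated in the sources used here. Values were used as deposited.

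Of 45101 probe sets, 34945 have 1 gene symbol, 932 several and 9160 none listed. Symbols were updated to RefSeq (GRCm38.p6) through gene identifiers. Each of 18193 genes was represented by its probe set of highest mean across all arrays, and the 38 members had 60 probe sets of their own and 3 shared between several family genes. The test was limma's (version 3.58.1, R 4.3.3; lmFit, then eBayes; two-sided and without covariates), adjusted by Benjamini-Hochberg over all genes at a threshold of 0.05. Values in each array are given for members that passed and for those averaging 5 or more in a group. They are also given for Tnf, Tnfrsf1a, Tnfrsf1b, Fas, Fasl, Ltb and Ltbr, and for the largest differences among the others, Tnfrsf9, Tnfsf9 and Lta. Tnfsf14 is given outside this rule, with a smaller difference than Tnfrsf12a, Tnfsf4 and Tnfrsf23, which are not. Pathway genes are named where they passed. Further genes named without passing were chosen after their values were seen. Members and lists were chosen with earlier results of these data known. On simulated data for this comparison of 18193 genes, with 200 of them changed per draw, log2 changes of 0.5, 1 and 2 were recovered in 19.2%, 76.5% and 97.8% of cases. These rates cannot be carried over to members averaging under 3 in log2, among them Tnfsf10, Tnfrsf9, Tnfsf9 and Lta. Only 11 of the 38 members were brighter than that. The number of arrays limits the precision. Alternatives were the replicate block, each array left out, dim-gene filters, other probe set choices, variance models and normalizations.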

Additional observations from a re-analysis of the deposited data

How the results depend on the processing

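The numbers of called genes depend on the setting. With any 1 array left out, 0 to 1 members were lower and 0 higher (the 1 being Tnfsf9, without control array 3), and in the pathway list 0 to 3 were lower and 0 to 2 higher. Over all genes limma called 0 in the fits lacking control array 2, or mimic array 1, or mimic array 3, with 2564, 2343 and 2746 genes at an unadjusted p under 0.05. The unmoderated fit called 0 genes in all (2523 at an unadjusted p under 0.05), hence 0 members and 0 pathway genes in either direction. Members lower numbered 2 (Fas and Ltb) with genes under a mean log2 of 3 left out, with a gene's probe sets averaged and with arrays centred on their medians, and 3 (Tnfrsf9 in addition) with a trended robust variance or array weights. Members higher numbered 0 with genes under a mean log2 of 3 or 5 left out, since Tnfsf10 was then not tested. Pathway genes lower numbered 6 with a trended robust variance and 6 with array weights, and pathway genes higher numbered 1, Mlkl, with every probe set tested on its own.

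With the replicate number as a block (replicate block), 1 member was lower and 1 higher, Fas and Tnfsf10 as before, and the pathway list gave 2 lower and 1 higher. Over all genes the block gave 188 lower and 126 higher, against 290 and 213 without it. Same-numbered arrays did not deviate together (correlations of -0.10, 0.25 and -0.19 for numbers 1, 2 and 3), and the labels do not say what the number stands for.

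A trended robust variance called 429 genes lower and 320 higher, array weights 591 and 456, and every probe set tested on its own 160 and 104. A further quantile normalization gave 290 lower and 322 higher. Fold changes were recomputed in each setting for the members given by array other than Tnfsf14, and for Tnfrsf12a, not for the other members. Among those recomputed, 2 changed sign: Tnfrsf1b ran from -0.10 to 0.046 with 1 array left out, and Tnfrsf21 was at -0.051 with its probe sets averaged. Fas, Tnfsf10, Ltb, Tnf, Lta, Ltbr, Tnfsf9 and Tnfrsf9 kept their sign in each setting that tested them.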
